A study of Homo sapiens with 6 samples.

Results

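The genes described here are 10 core proteins of matrix and cell-surface proteoglycans, VCAN, HSPG2, BGN, DCN, LUM, SDC1, SDC2, SDC3, SDC4 and GPC1. They were chosen by gene symbol, and all 10 were among the 23228 genes listed in the count tables. The cells sequenced were MDA-MB-231, a human cell line established from a triple negative breast cancer. All cells were stably selected with puromycin, 3 replicates carrying a non-targeted control shRNA and 3 replicates carrying a PELP1 shRNA (PELP1-KD). PELP1 is a coregulator of nuclear receptors and a component of a ribosome assembly complex. The study's methods name a lentiviral PELP1 shRNA construct for these cells, so that an effect of PELP1 and an effect of that construct cannot be told apart. The labels do not say that replicates came from separate cultures or selections, and p-values therefore measure the spread between these samples, which may be technical.

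A proteoglycan is a core protein that carries long, sulfated sugar chains called glycosaminoglycans. Versican (VCAN) is a large chondroitin sulfate proteoglycan that binds hyaluronan in loose matrix, and perlecan (HSPG2) is the large heparan sulfate proteoglycan of basement membranes. Biglycan (BGN), decorin (DCN) and lumican (LUM) are small leucine-rich proteoglycans that bind collagen and are made in abundance by fibroblasts. Syndecans (SDC1 to SDC4) span the plasma membrane, and glypican-1 (GPC1) is held to it by a lipid anchor. Both carry heparan sulfate and present growth factors to their receptors.

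Between 17304864 and 23132102 reads per library were counted on genes. CPM is the count scaled to the library size, corrected for composition by edgeR's TMM method, and the detection floor of 3 reads was between 0.127 and 0.177 CPM per library, which covers counting error only. PELP1 had 968, 1274 and 1069 reads with control shRNA against 557, 637 and 712 with PELP1 shRNA, which is a log2 fold change of PELP1-KD over control (log2FC) of -0.97 (SE 0.0552, edgeR adjusted p-value 1.48e-11). SE is the standard error, and adjusted p-values here and below are from the quasi-likelihood test of edgeR, corrected over all tested genes by the Benjamini-Hochberg method. ESR1, PGR and CDH1, which this line lacks, had at most 4 reads in any library, and VIM, which it expresses, averaged 2221 CPM in the control cells and 1922 CPM in PELP1-KD cells. Also listed as absent or low in this line were ERBB2, at 113 CPM in the control cells and 118 CPM in PELP1-KD cells, and EPCAM, at 9.46 CPM and 9.57 CPM.

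At an adjusted p-value below 0.05, 2 of the 10 proteoglycans were higher in PELP1-KD cells (VCAN and SDC4) and 1 was lower (HSPG2), while SDC1, SDC2, SDC3 and GPC1 did not pass. BGN, DCN and LUM had too few reads to be tested. Of the 12796 genes tested, 22.7% were higher and 24.2% were lower under the same rule, so the number of proteoglycans called was near that of genes in general. Under scaling by library totals, 61.2% of all called genes were higher, against 48.3% with TMM, and 4 proteoglycans were higher and 1 was lower. With a log2FC beyond 1 as well, VCAN was the 1 member called; 1.9% of the tested genes were higher and 1.34% were lower under this rule. Of the 7 members tested, the libraries of the groups did not overlap in 4, VCAN, HSPG2, SDC4 and GPC1, where they did not overlap in 55% of the tested genes.

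The stretch of 250 bases before a RefSeq start site is shown for the 3 members that passed the test, taken from RefSeq on GRCh38.p14, read 5′ to 3′ on the strand of the gene. The windows are chr5:83471494-83471743 on the plus strand for VCAN, chr1:21937311-21937560 on the minus strand for HSPG2 and chr20:45348425-45348674 on the minus strand for SDC4. The GENCODE annotation used for gene positions begins VCAN further upstream, so that by it the VCAN window lies inside the gene. Capitals mark matches on either strand to the short words searched for, which are defined after the sequences.
VCAN: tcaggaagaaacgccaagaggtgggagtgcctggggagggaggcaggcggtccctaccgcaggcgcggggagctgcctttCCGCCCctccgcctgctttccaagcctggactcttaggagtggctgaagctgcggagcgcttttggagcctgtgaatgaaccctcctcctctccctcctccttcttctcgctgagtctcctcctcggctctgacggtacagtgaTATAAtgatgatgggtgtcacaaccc
HSPG2: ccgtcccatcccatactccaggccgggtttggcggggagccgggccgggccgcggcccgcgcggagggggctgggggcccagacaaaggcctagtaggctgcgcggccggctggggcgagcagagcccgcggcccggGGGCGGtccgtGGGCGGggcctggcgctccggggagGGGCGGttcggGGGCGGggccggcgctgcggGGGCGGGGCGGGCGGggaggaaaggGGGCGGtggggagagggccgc
SDC4: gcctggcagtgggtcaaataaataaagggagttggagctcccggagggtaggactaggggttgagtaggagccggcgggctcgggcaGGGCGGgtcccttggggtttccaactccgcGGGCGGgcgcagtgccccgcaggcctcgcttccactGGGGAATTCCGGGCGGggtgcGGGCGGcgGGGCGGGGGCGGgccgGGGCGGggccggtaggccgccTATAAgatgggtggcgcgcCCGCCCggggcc
The words were the E-box CACGTG, bound by MYC, the GC box GGGCGG, bound by SP1, the E2F word TTTNGCGC, the AP-1 word TGANTCA, the TATAA word of core promoters and the NF-kB consensus, and matches could overlap. VCAN had 1 GC box and 1 TATAA word that began 26 bases before the start. SDC4 had 8 GC boxes, 1 NF-kB match and 1 TATAA word that began 31 bases before the start. The NF-kB match of SDC4 lies directly before a GC box without a shared base, and some GC boxes of HSPG2 overlap each other. HSPG2 had 8 GC boxes and no TATAA word, and its window was 82.8% G or C, where the window of VCAN was 60.8%. Of all 35116 windows of this length in the table, 42.6% held a GC box, 18.9% TATAA and 5.21% the NF-kB consensus. The E-box, the E2F word and the AP-1 word, held by 6.35%, 1.51% and 6.57% of all windows, were not found in any window of the members. In all, 7 of the 10 members had a window in the table, SDC1 with 2 start sites, and each of these 8 windows held a GC box. The 8 windows were between 60.8% and 84% G or C, where the median of all windows was 58%. The part of this content in the number of GC boxes was not tested. Matches to the words are letters in the sequence and were not measured as binding.

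VCAN had the largest change of the 7 tested members, from a low level in the control cells. It lies on chromosome 5 of GRCh38, from 83471465 to 83582303 on the plus strand. The reads counted on VCAN were 25, 35 and 28 in the control libraries (replicates 1, 2 and 3) against 189, 183 and 201 in the PELP1-KD libraries. Every PELP1-KD library was far above every control library, and within each group the normalised levels were close together, at 1.48, 1.54 and 1.58 CPM in the control cells and 9.70, 8.58 and 8.54 CPM in PELP1-KD cells. The mean rose from 1.53 ± 0.0499 CPM (n = 3, SD) to 8.94 ± 0.657 CPM (n = 3, SD), which is 5.80-fold with a 95% interval of 4.70 to 7.14. The log2FC was 2.54 (SE 0.145, edgeR adjusted p-value 1.44e-11), the 15th highest of the 12796 tested genes. With each replicate left out in turn it stayed between 2.48 and 2.57. The GENCODE annotation lists 12 transcripts of VCAN, and gene counts do not show which of its isoforms changed. An annotated antisense gene shares 453 exon bases with VCAN, and reads from both cannot be told apart if the counting ignored strand, which is not given in the sources used here.

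VCAN is also made by fibroblasts, so the list of fibroblast and pericyte markers is given beside it. The summed level of its 9 genes was between 20.2 and 25.2 CPM in the control libraries and between 62.7 and 68.2 CPM in the PELP1-KD libraries. The difference rested on COL1A1, with a log2FC of 1.61 (edgeR adjusted p-value 3.23e-10), and PDGFRB, with a log2FC of 1.53 (edgeR adjusted p-value 3.73e-13), while ACTA2 did not pass, with a log2FC of -0.19. FAP had 0 reads in all libraries, and COL1A2, COL3A1, PDGFRA, THY1 and POSTN had fewer than 5 in each. The sum of 4 endothelial markers was between 0.296 and 0.676 CPM in the control libraries and between 0.923 and 1.17 CPM in the PELP1-KD libraries, with CLDN5 at 0. Of these, VWF was tested and rose, with a log2FC of 2.56 (edgeR adjusted p-value 6.99e-04) on 1, 6 and 0 reads with control shRNA against 12, 20 and 16 with PELP1 shRNA. PECAM1 and CDH5 had too few reads to be tested and did not rise. Their means were 0.221 and 0.142 CPM in the control cells and 0.199 and 0.109 CPM in PELP1-KD cells. The part of these markers in the VCAN result was not tested. In bulk samples, more cells that express a gene and more RNA per cell cannot be told apart. The genes whose log2 CPM was most like that of VCAN over the 6 libraries were ABHD2, LOC100133991 and FLJ22447, with a Pearson's r of 0.9993, 0.9992 and 0.9989. These 6 points fall in 2 groups and share their library sizes, so the values are a description. Their own log2FC values were 0.26, 0.99 and 1.33.

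**Figure D1:**
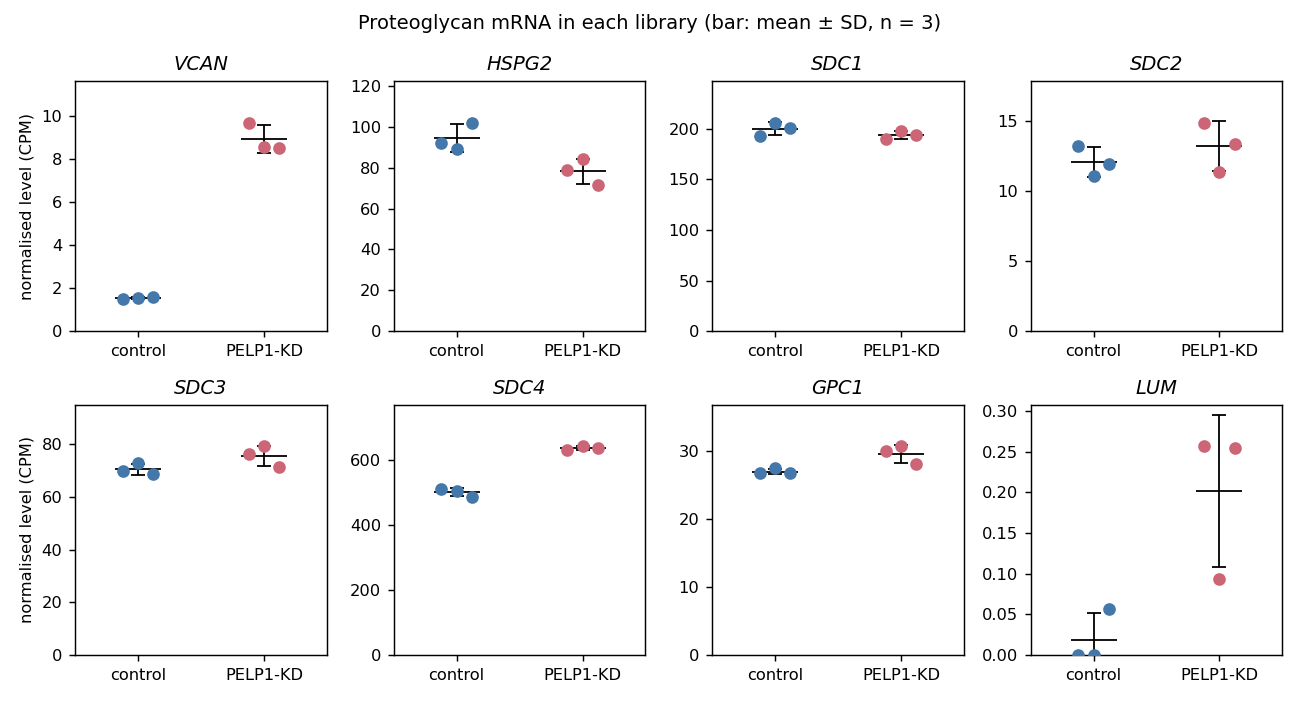
Level of 8 proteoglycan genes in each library, in CPM on axes that start at 0, with control libraries in blue and PELP1-KD libraries in red (3 each), and the mean ± SD in black. The groups are clear of each other in VCAN, HSPG2, SDC4, GPC1 and LUM and overlap in SDC1, SDC2 and SDC3; LUM rests on 1 read in the control libraries and 13 in the PELP1-KD libraries. BGN and DCN had 0 reads and are not drawn.

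HSPG2 was the member that fell. It lies on chromosome 1 of GRCh38, from 21822245 to 21937297 on the minus strand. Its reads were 1558, 2030 and 1810 in the control libraries (replicates 1, 2 and 3) against 1535, 1794 and 1682 in the PELP1-KD libraries, which is 92.1, 89.3 and 102 CPM against 78.7, 84.1 and 71.5 CPM. The groups did not overlap after scaling, but the gap between the nearest libraries of the groups was smaller than the SD of either group. The mean of HSPG2 was 94.5 ± 6.62 CPM (n = 3, SD) with control shRNA and 78.1 ± 6.34 CPM (n = 3, SD) after knockdown. This is a log2FC of -0.27 (SE 0.0576, edgeR adjusted p-value 5.61e-04), so that the level fell by 17.3%. The log2FC stayed between -0.33 and -0.21 when any 1 replicate was left out. The exons of LDLRAD2 share 2121 bases with those of HSPG2 on the other strand, and LDLRAD2 itself had 1 read over all 6 libraries.

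The small leucine-rich proteoglycans were at or near 0. BGN lies on chromosome X of GRCh38 (153494939 to 153509554, plus strand), and DCN (91140484 to 91183123) and LUM (91102629 to 91111831) are close to each other on the minus strand of chromosome 12. BGN and DCN had 0 reads in each of the 6 libraries, which allows a level of up to 0.127 to 0.177 CPM depending on the library. LUM had 0, 0 and 1 reads in the control libraries (replicates 1, 2 and 3) against 5, 2 and 6 in the PELP1-KD libraries. All PELP1-KD libraries had more LUM reads than any control library, though 1 of them was below the floor of 3 reads. Summed over libraries, the ratio of PELP1-KD to control was 11.6 with an exact 95% interval of 1.74 to 493, which covers counting error only. LUM was left out of the test by the filter on low counts. With no such filter, its edgeR adjusted p-value was 0.0227.

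Of the syndecans, SDC4 rose and the other members did not pass the test. SDC4 is the syndecan of focal adhesions, where it works with integrins. It lies on chromosome 20 of GRCh38, from 45325288 to 45348424 on the minus strand, and had 8638, 11465 and 8621 reads in the control libraries (replicates 1, 2 and 3) against 12259, 13662 and 14983 in the PELP1-KD libraries. The PELP1-KD libraries, at 629, 640.4 and 637 CPM, were tightly grouped above the control libraries, at 511, 505 and 486 CPM. The mean rose from 500.3 ± 13.1 CPM (n = 3, SD) to 635 ± 5.84 CPM (n = 3, SD). The log2FC was 0.34 (SE 0.0283, edgeR adjusted p-value 3.77e-09), a rise of 27.0% with a 95% interval of 1.22-fold to 1.32-fold. The change is small beside that of VCAN, but SDC4 was counted deeply, and its log2FC stayed between 0.32 and 0.36 with each replicate left out in turn.

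SDC1, the syndecan of epithelial and plasma cells, lies on chromosome 2 of GRCh38, from 20200797 to 20225433 on the minus strand. It had 3272, 4684 and 3570 reads with control shRNA against 3706, 4227 and 4555 with PELP1 shRNA. Scaled to library size, the libraries of both groups lay together, at 193, 206 and 201 CPM against 190.1, 198 and 194 CPM. Its log2FC was -0.05 with a 95% interval of -0.12 to 0.03 (edgeR adjusted p-value 0.293). Scaled by library totals, this was 0.003 instead, so that no direction can be given for SDC1.

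SDC2, the syndecan of mesenchymal cells, lies on chromosome 8 of GRCh38, from 96493351 to 96611780 on the plus strand. It had 224, 252 and 212 reads with control shRNA against 290, 243 and 315 with PELP1 shRNA. PELP1-KD replicate 2, at 11.4 CPM, lay among the control libraries, at 13.2, 11.1 and 11.9 CPM, and PELP1-KD replicates 1 and 3 were at 14.9 and 13.4 CPM. The log2FC of SDC2 was 0.13 with a 95% interval of -0.08 to 0.35 (edgeR adjusted p-value 0.296), the widest interval of the syndecans, which had the fewest reads in SDC2. It was 0.05 without PELP1-KD replicate 1 and 0.23 without PELP1-KD replicate 2.

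SDC3, best known from the nervous system, lies on chromosome 1 of GRCh38, from 30869467 to 30908761 on the minus strand. It had 1182, 1658 and 1223 reads with control shRNA against 1488, 1691 and 1685 with PELP1 shRNA. This is 69.9, 73.0 and 68.9 CPM against 76.3, 79.3 and 71.6 CPM, and PELP1-KD replicate 3 was the library that overlapped the control cells. The log2FC was 0.10 with a 95% interval of -0.003 to 0.20 (edgeR adjusted p-value 0.104). Without PELP1-KD replicate 3 it was 0.14 (edgeR adjusted p-value 0.0496).

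GPC1, a coreceptor for fibroblast growth factors, lies on chromosome 2 of GRCh38, from 240435671 to 240468078 on the plus strand. It had 451, 622 and 474 reads with control shRNA against 584, 653 and 659 with PELP1 shRNA. Its level was 26.7, 27.4 and 26.7 CPM in the control cells and 30.0, 30.6 and 27.999 CPM in PELP1-KD cells, without overlap. The log2FC was 0.13 (SE 0.0624) and its 95% interval, from 0.0008 to 0.26, began just above 0, with an edgeR adjusted p-value of 0.0917. Scaled by library totals, GPC1 and SDC3 passed, with a log2FC of 0.18 (edgeR adjusted p-value 0.0216) and 0.15 (adjusted p-value 0.0165), where the median log2FC of all tested genes was 0.05 instead of 0.001.

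**Figure D2:**
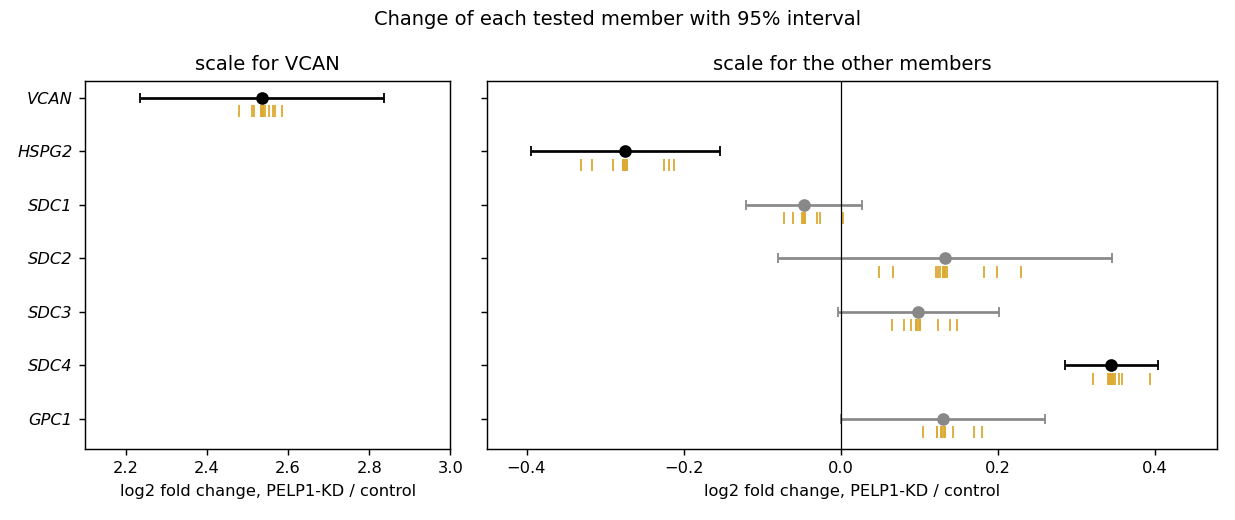
The log2FC of PELP1-KD against control for the 7 tested members, with VCAN on a scale of its own at the left. Points and bars are the estimate and its 95% interval, black where the adjusted p-value was below 0.05 and grey elsewhere, and yellow ticks are the values under 13 other settings of the processing. The intervals of VCAN, HSPG2, SDC4 and GPC1 do not reach 0. That of HSPG2 runs from -0.39 to -0.15, and that of GPC1 begins at 0.0008. A tick of SDC1 lies at 0.003 on the other side of 0.

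To compare levels between genes, CPM was divided by the exon length in the GENCODE annotation (RPKM). In the control cells the order was SDC4 at 191 ± 5.03 RPKM (n = 3, SD), SDC1 at 55.7 ± 1.77, SDC3 at 9.99 ± 0.301, HSPG2 at 5.22 ± 0.366, GPC1 at 4.13 ± 0.0611, SDC2 at 2.67 ± 0.239 and VCAN at 0.103 ± 0.00336 RPKM. No neighbours in this order overlapped between libraries. In PELP1-KD cells the order was the same except for HSPG2, at 4.31 ± 0.350 RPKM (n = 3, SD), and GPC1, at 4.53 ± 0.209 RPKM (n = 3, SD), which overlapped. VCAN remained the lowest of the 7 tested members after its rise, at 0.603 ± 0.0443 RPKM (n = 3, SD), and SDC4 the highest, at 243 ± 2.24 RPKM (n = 3, SD). The positions of HSPG2 and GPC1 depend on the length used. With the longest transcript in place of all exons, GPC1 (7.25 RPKM) was above HSPG2 (6.59 RPKM) in the control cells.

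**Figure D3:**
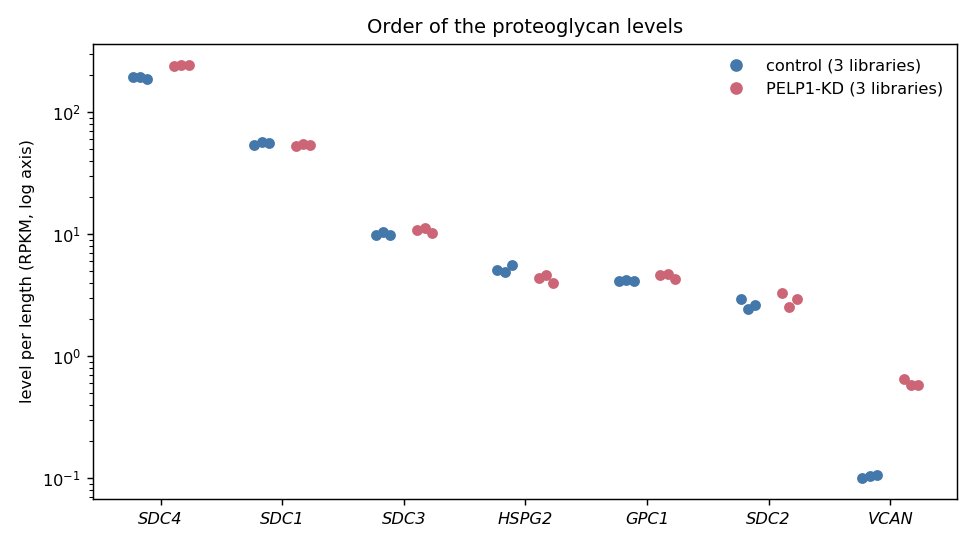
Level per length (RPKM, on a log axis) of the 7 tested members in each library, in the order of the control means, with control libraries in blue and PELP1-KD libraries in red. SDC4 is highest, at 191 RPKM in control and 243 RPKM in PELP1-KD cells, and VCAN is lowest, at 0.103 and 0.603 RPKM.

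Ratios within a library do not depend on how libraries are scaled. The reads of SDC4 for each read of SDC1 were 2.64, 2.45 and 2.41 in the control libraries (replicates 1, 2 and 3) against 3.31, 3.23 and 3.29 in the PELP1-KD libraries, so that this ratio was higher in every PELP1-KD library than in any control library. Per length, SDC4 made up 73.7% ± 0.782 (SD, n = 3) of the summed syndecan level in the control cells and 78.3% ± 0.192 (SD, n = 3) in PELP1-KD cells, and SDC1 made up 21.4% ± 0.795 and 17.4% ± 0.185. The summed syndecan level was 259.8 ± 4.95 RPKM (n = 3, SD) in the control cells and 311 ± 3.14 RPKM (n = 3, SD) in PELP1-KD cells. Unlike the ratios, this sum depends on how libraries are scaled. For the matrix members, the reads of VCAN came to 1.60%, 1.72% and 1.55% of those of HSPG2 with control shRNA against 12.3%, 10.2% and 11.95% with PELP1 shRNA. The reads of HSPG2 for each read of GPC1 were 3.45, 3.26 and 3.82 with control shRNA against 2.63, 2.75 and 2.55 with PELP1 shRNA. In each of these ratios the groups were clear of each other. They were already so for VCAN, HSPG2, SDC4 and GPC1 alone, so the ratios are no separate support.

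Core proteins act through their sugar chains and partners. With earlier results of these data known, 6 lists of such genes were written from general knowledge, so their shares are a description. Of their 126 genes, 75 were tested, of which 13 were higher and 34 lower in PELP1-KD cells at an adjusted p-value below 0.05 (17.3% and 45.3%, against 22.7% and 24.2% of all tested genes). Scaled by library totals, 18 were higher and 29 lower. Their median log2FC was -0.14, where that of all tested genes was 0.001 and that of the 7 tested members was 0.13.

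Of the other proteoglycan core proteins, 13 of 36 were tested, with 2 higher and 6 lower and a median log2FC of -0.27. CD44, the hyaluronan receptor that can itself carry glycosaminoglycan chains, fell from 1209 ± 31.1 CPM (n = 3, SD) to 828 ± 1.47 CPM (n = 3, SD), a log2FC of -0.55 (edgeR adjusted p-value 8.62e-13). SRGN, the intracellular granule proteoglycan serglycin, fell, with a log2FC of -0.59 (adjusted p-value 2.81e-11), and NRP1, a coreceptor for VEGF and semaphorins, at -0.58 (adjusted p-value 2.38e-10). CSPG4, a chondroitin sulfate proteoglycan of the cell surface, rose by a log2FC of 0.70 (adjusted p-value 6.47e-04). PODNL1, of the small leucine-rich family, rose by a log2FC of 1.29 on 3, 12 and 6 reads with control shRNA against 11, 26 and 21 with PELP1 shRNA (adjusted p-value 0.0114), and without PELP1-KD replicate 2 its adjusted p-value was 0.0809.

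Of 14 genes for the linker that joins a chain to its core protein and for the sugar and sulfate donors, 13 were tested, with 3 higher and 6 lower and a median log2FC of -0.11. The tested genes of this list lay between -0.29 and 0.21. UGDH, which makes the UDP-glucuronic acid that all these chains need, had a log2FC of -0.29 (edgeR adjusted p-value 7.42e-05). FAM20B, the xylose kinase of the linker, was at -0.22 (adjusted p-value 1.33e-04) and PAPSS2, which makes the sulfate donor, at -0.14 (adjusted p-value 0.00387). UXS1, which makes UDP-xylose, rose by 0.16 (adjusted p-value 0.00372) and the linker enzymes B3GAT3 and B4GALT7 by 0.21 (adjusted p-value 0.00726) and 0.19 (adjusted p-value 0.0306). The call of B4GALT7 was lost when control replicate 1 or 2 or PELP1-KD replicate 1 or 2 was left out, and with DESeq2 in place of edgeR. Of the xylosyltransferases that begin every chain, XYLT1 had 0 reads in all libraries and XYLT2 did not pass, with a log2FC of 0.13 (adjusted p-value 0.109); this pair is outside the rule and was named after its values were seen.

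Of 25 heparan sulfate genes, 13 were tested, with 2 higher and 8 lower and a median log2FC of -0.19. The chain polymerase EXT2 fell, with a log2FC of -0.24 (edgeR adjusted p-value 1.59e-05) and the sulfotransferase HS2ST1 at -0.25 (adjusted p-value 6.66e-05). HS3ST1, which adds the rare sulfate needed to bind antithrombin, fell, at -0.88 (adjusted p-value 7.74e-05), on 69, 110 and 87 reads with control shRNA against 44, 58 and 60 with PELP1 shRNA. NDST3, of the family that begins sulfation, fell, at -1.71 (adjusted p-value 0.00724), but on 9, 12 and 9 reads with control shRNA against 1, 3 and 6 with PELP1 shRNA, and it was filtered out as too low without control replicate 2 or without PELP1-KD replicate 2 or 3. Its control mean was 0.522 CPM. Of the same family, and outside the rule, NDST1 averaged 285 CPM in the control cells and NDST2 22.3 CPM. Neither passed, with a log2FC of 0.08 (edgeR adjusted p-value 0.0614) for NDST1 and -0.11 (adjusted p-value 0.201) for NDST2. NDST4 had too few reads to be tested. HS3ST3B1, which modifies the same position as HS3ST1, rose by 0.33 (adjusted p-value 0.00709), and EXTL3, which starts the heparan sulfate chain, by 0.20 (adjusted p-value 0.00158).

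Of 16 chondroitin and dermatan sulfate genes, 15 were tested, with 2 higher and 4 lower and a median log2FC of -0.07. Scaled by library totals, 2 were lower. CHST11, which sulfates chondroitin, rose by a log2FC of 0.24 (edgeR adjusted p-value 1.73e-05) and DSE, the epimerase that makes dermatan sulfate, by 0.29 (adjusted p-value 1.59e-04). UST, a uronyl sulfotransferase, fell, at -0.72 (adjusted p-value 1.50e-04) and the polymerase CHSY3 at -0.79 (adjusted p-value 3.51e-04). CSGALNACT2, which starts chondroitin chains, fell, at -0.15 (adjusted p-value 0.0163), a call that was lost without control replicate 1 or without PELP1-KD replicate 2 or 3, and under library totals.

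Hyaluronan, the sugar polymer to which versican and CD44 bind, is made at the plasma membrane without a core protein. Of 17 hyaluronan genes, 8 were tested, with 1 higher and 3 lower and a median log2FC of -0.13. The synthase HAS2 fell from 19.5 ± 0.445 CPM (n = 3, SD) to 11.7 ± 0.215 CPM (n = 3, SD), a log2FC of -0.73 (edgeR adjusted p-value 1.47e-07). TMEM2, a cell-surface hyaluronidase, fell from 65.7 ± 1.22 CPM (n = 3, SD) to 40.8 ± 0.783 CPM (n = 3, SD), a log2FC of -0.69 (adjusted p-value 4.96e-10). HMMR, a hyaluronan-binding protein of the mitotic spindle, fell, at -0.23 (adjusted p-value 0.00843), which was lost without PELP1-KD replicate 2. HAPLN3, a link protein that fastens versican-type proteoglycans to hyaluronan, rose by 0.34 (adjusted p-value 0.024), which was lost without control replicate 1 (adjusted p-value 0.108) or PELP1-KD replicate 2 (adjusted p-value 0.0938). The call of HAPLN3 was also lost with DESeq2 in place of edgeR (DESeq2 adjusted p-value 0.0693).

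Of 18 genes for core protein cleavage and for syndecan partners inside the cell, 13 were tested, with 3 higher and 7 lower and a median log2FC of -0.21. ADAMTS1, a protease that can cleave versican, had 217, 256 and 200 reads with control shRNA against 103, 123 and 149 with PELP1 shRNA, a log2FC of -1.01 (edgeR adjusted p-value 1.43e-07). Its libraries did not overlap between the groups, as in 55% of the tested genes, and its direction was opposite to that of VCAN. Of the same family, and outside the rule, ADAMTS9 had a log2FC of -0.0005 (adjusted p-value 0.998) and ADAMTS15 of -0.40 (adjusted p-value 1.11e-05). The part of these proteases in the VCAN result was not tested. ADAM17, a sheddase that can release syndecans from the cell surface, fell, at -0.56 (adjusted p-value 7.8e-09). PRKCA, a kinase that the tail of syndecan-4 can bind, fell, at -0.46 (adjusted p-value 1.22e-09), while SDC4 itself rose. TIAM1, an activator of RAC1 with a domain that binds syndecan-1, rose by 0.63 (adjusted p-value 7.54e-08). BMP1, a protease that matures biglycan and cleaves perlecan, rose by 0.43 (adjusted p-value 8.03e-04) and the lysosomal protease CTSL1 by 0.14 (adjusted p-value 0.00655).

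**Figure D4:**
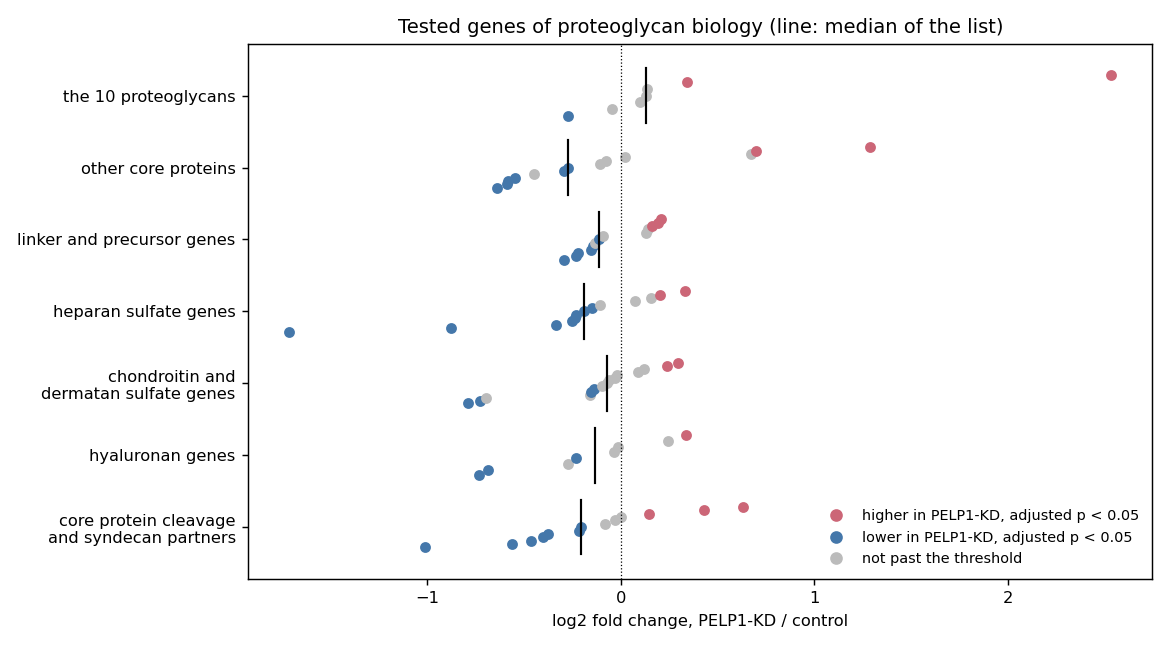
The log2FC of PELP1-KD against control for each tested gene of the 10 proteoglycans (7 genes) and of the 6 lists on their chains and partners (75 genes), red where higher and blue where lower at an adjusted p-value below 0.05, grey elsewhere, with a black line at the median of each list. The medians of the 6 lists lie between -0.27 and -0.07, and that of the proteoglycans lies at 0.13, with VCAN far to the right at 2.54.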

How the data were processed

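RNA-seq was done on 3 control and 3 PELP1-KD replicates of MDA-MB-231, with stranded poly(A) libraries and single reads of 50 bases. The authors deposited counts of reads per gene symbol for each replicate, as whole numbers without normalization. The submitters' processing notes name bcl2fastq, TopHat2, SAMtools and HTSeq and the build hg19; versions, the annotation and the strand setting are not given in the sources used here. Between 41.0% and 41.4% of the reads in each table were in closing rows that name no gene, mostly reads with several alignments, and were left out. Gene positions and lengths come from GENCODE release 29 on GRCh38, not from the build of the counts.

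Genes passing edgeR's filterByExpr (minimum count 10) were kept, with TMM factors. Groups were compared with edgeR 4.0.16 in R 4.3.3 (glmQLFit and glmQLFTest), and p-values were adjusted over 12796 genes by the Benjamini-Hochberg method. SE was taken as log2FC over the root of the F statistic, and 95% intervals used the degrees of freedom of the test. Log2 CPM used a prior count of 2. Scripts were tested on simulated counts. Replicates of a group differed by more than sampling noise (chi-square per degree of freedom 1.46 to 3.99). The members, lists and words searched for were chosen with earlier results of these data known. Named beside the members are, in each list, up to 3 genes with the lowest p-values in each direction among those called and every called gene with a log2FC beyond 1, with exceptions stated; for VCAN, the member with the lowest p-value, the 3 most similar genes are named. The settings tried besides were a block for the replicate number, each replicate left out, RLE factors, library totals, a filter of 10 or more counts in all replicates, no filter, limma 3.58.1 (voom), DESeq2 1.42.0 and, for RPKM, the longest transcript.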

Additional observations from a re-analysis of the deposited data

How the results depend on the processing

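The calls of VCAN, HSPG2 and SDC4 held under all 13 alternatives, between a log2FC of 2.48 and 2.58, -0.33 and -0.21, and 0.32 and 0.39, with adjusted p-values of at most 2.53e-09, 0.00906 and 3.69e-07. Scaling by library totals raised the median log2FC of all tested genes to 0.051. Under it, SDC3 (0.15) and GPC1 (0.18) passed, SDC1 turned to 0.0026, and calls went to 4 members, 5 linker and precursor genes and 4 heparan sulfate genes higher, and 2 chondroitin and dermatan sulfate genes lower. With each replicate left out, SDC3 lay between 0.066 and 0.14, between 1 and 2 other core proteins and between 0 and 1 hyaluronan genes were higher, and between 2 and 3 members were. With at least 10 counts in every replicate, 1 other core protein was higher. DESeq2 called 0 hyaluronan genes higher, with 1 at an unadjusted p below 0.05, where edgeR and voom called 1. Deviations of same-numbered replicates correlated at 0.039, 0.065 and -0.078. This shows no pairing by replicate number, but 3 replicates in each group are too few to exclude it. With the replicate number as a block, log2FC values were 2.53 for VCAN, -0.27 for HSPG2 and 0.35 for SDC4, 4 heparan sulfate genes were higher, and 3140 genes were higher and 3335 lower, against 2904 and 3103. With the longest transcript as length, control levels were 0.121 RPKM for VCAN, 6.59 for HSPG2, 60.8 for SDC1, 3.22 for SDC2, 11.0 for SDC3 and 7.25 for GPC1. Depth limits LUM, BGN and DCN. The cause of the changed calls was not tested except where the setting itself shows it.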
